A study of Mus musculus with 4 samples.

Results

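The genes described here encode the machinery that imports proteins into mitochondria, shapes the cristae and joins or divides the organelle. They were taken by symbol: every gene named Timm, Tomm or Chchd followed by a digit, together with Immt, Apoo, Apool, Samm50, Opa1, Oma1, Mfn1, Mfn2, Dnm1l, Fis1, Mff, Phb and Phb2. This gave 46 genes of the 22322 in the deposited tables, by a rule that uses symbols alone and was set with earlier results of these data known. Tomm70 is listed in the tables as Tomm70a and is called so here. Of the 46 genes, 44 had enough counts to be tested, while Timm8a2, a small TIM gene, and Tomm20l, a relative of Tomm20, had 0 counts in all 4 libraries.

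RNA was sequenced from cardiomyocytes, the contracting muscle cells of the heart, in 2 libraries from sham-operated mice (sham 1 and sham 2) and 2 from mice after transverse aortic constriction (TAC 1 and TAC 2). TAC narrows the aorta, loads the left ventricle with pressure and is used as a model of heart failure, and a sham mouse has the operation without the narrowing. Per the study's methods, the mice were males operated on as young adults and studied months later. By the same methods, the heart was taken apart with a perfusion (Langendorff) system to release its cells. Each sample was part of the myocytes of 1 heart, so that the 2 libraries of a group stand for 2 mice. Neither the strain nor a genetic change is given in the labels, and TAC against sham is the one comparison of the design. It asks which RNA levels differ in cardiomyocytes of the failing heart.

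Nearly all mitochondrial proteins are made in the cytosol and cross the outer membrane through the TOM complex, a channel with receptors that read targeting signals. From there, the TIM23 complex passes proteins with a cleavable presequence into the matrix, the TIM22 complex inserts carrier proteins into the inner membrane with the help of small TIM chaperones, the SAM complex folds barrel proteins into the outer membrane, and Chchd4 traps small cysteine-rich proteins in the space between the membranes by forming disulfide bonds. The MICOS complex and the prohibitins hold the inner membrane in its folded shape. Mitofusins and Opa1 fuse the outer and inner membranes, and Dnm1l, drawn to the surface by Mff and Fis1, cuts the organelle. In the heart, mitochondria fill a large part of each muscle cell and supply most of its ATP.

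The libraries held between 24237777 and 32118323 expected counts, and counts were detected for 14495 to 14949 genes per library. The 12 cardiomyocyte markers checked, among them Myh6, Tnnt2 and Actc1, summed to between 84206 and 93330 CPM in every library. CPM are counts scaled to a common library size, here by the TMM method, which sets that size from the bulk of the genes. Of the 12, 0 were called, but single markers differed in both directions. Both TAC libraries lay above both sham libraries for 5 of 12 (29.8% of all genes tested) and below them for 3 (3793 of 12499 genes). Their log2 fold changes (TAC over sham) ran from -0.38 for Ryr2 to 0.41 for Myl2. The markers of other heart cells lay lower in TAC. For comparison, 6359 of all 12499 genes tested lay lower and 304 were called lower. Endothelial markers summed to 915 and 782 CPM in sham against 443 and 609 CPM in TAC (12 of 12 lower, 4 called), fibroblast markers to 537 and 372 against 207 and 288 CPM (12 of 12 lower, 4 called), mural markers to 765 and 803 against 443 and 584 CPM (10 of 10 lower, 2 called) and macrophage and leukocyte markers to 142 and 72.2 against 38.8 and 72.3 CPM (12 of 12 lower, 0 called). The sums of the first 3 of these lists did not overlap between the groups, TAC 1 was lowest for each, red blood cell markers overlapped at 49.9 to 125 CPM, and no marker was at 0 in any library. In such bulk RNA, fewer cells of a type and less RNA per cell cannot be told apart, and the part of these markers in the differences given next was not tested. The share of counts on the 13 protein genes of the mitochondrial DNA was 39.8% and 40.8% in sham and 47.4% and 40.3% in TAC, with TAC 1 apart from the other 3 libraries.

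Most of the 44 genes lay slightly higher in TAC cardiomyocytes, and 2 of them, Tomm5 and Timm8a1, passed the test. The median log2 fold change (TAC over sham) of the 44 genes was 0.21 with TMM scaling, where the median of all 12499 genes tested was -0.01. At an adjusted p under 0.05 in edgeR's quasi-likelihood test, 2 of 44 were called higher and 0 lower. Of all genes tested, 5.01% were called in either direction and 2.58% as higher, so that the count of calls among the 44 was near the background. The shift was broader than the calls. The log2 fold change was above 0 for 43 of 44 genes (49.1% of all genes), both TAC libraries lay above both sham libraries for 35 of 44 (29.8% of all genes) and below them for 0, and the unadjusted p was under 0.05 with a higher level in TAC for 21 of 44 (13.5% of all genes).

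These directions depended on how the libraries were scaled. When each library was divided by its total count, the scaling named in the study's methods, the median of the 44 genes was 0.02, the median of all genes was -0.20, and 24 of 44 lay above 0 (23.2% of all genes). A change of library size moves all genes by about the same amount and keeps their order nearly as it was. The distance between the 44 genes and the median gene was therefore 0.21 with either scaling. Every one of the 44 lay above the all-gene median with both, which for the same reason is no separate check. With total counts that left out the 13 mitochondrial DNA genes, 35 of 44 were above 0 and the median was 0.11. Expressed as a share, the 46 genes took 0.452% and 0.454% of all counts in sham and 0.414% and 0.465% in TAC, which overlapped. As a share of the counts outside the mitochondrial DNA genes, they took 0.752% and 0.768% in sham and 0.788% and 0.780% in TAC, with both TAC libraries above both sham libraries. The values below are TMM-scaled unless stated, and a gene described as higher was so relative to the bulk of the genes.

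**Figure D1:**
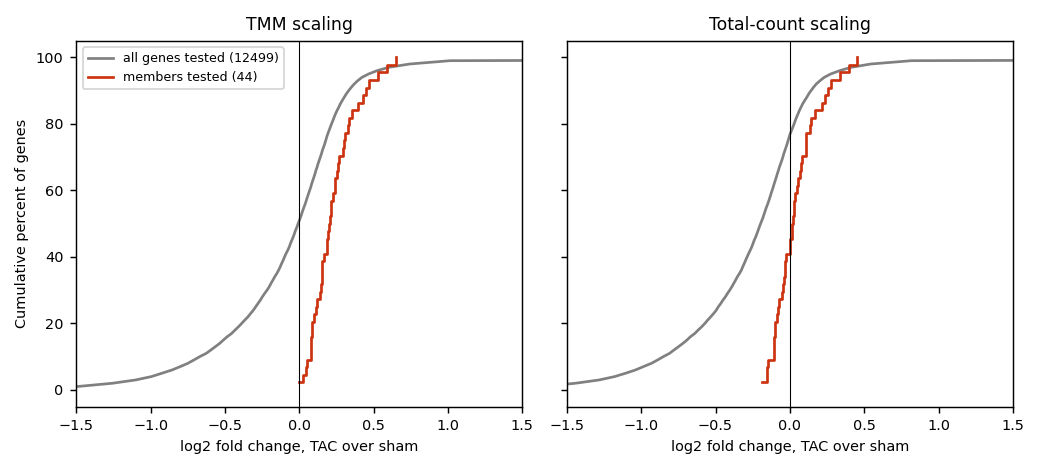
Cumulative percent of genes (vertical axis) against log2 fold change, TAC over sham (horizontal axis), for the 44 genes (red) and all 12499 genes tested (grey), with TMM scaling on the left and total-count scaling on the right. The red curve lies to the right of the grey one with medians 0.21 apart in both panels, since the scaling moves all genes by about the same amount. The genes above 0 go from 43 of 44 to 24 of 44.

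The start-site regions of 5 genes are shown: Tomm5 and Timm8a1 because they were called, and Timm10, Tomm70a and Phb2, which were not called, as examples of windows that hold the most frequent of the motifs searched, chosen after the matches were seen. Each is the RefSeq window on GRCm38.p6 from 250 bases before to 50 bases after an annotated start, written 5′ to 3′ on the gene's strand, and capitals mark CCGGAAGT, the letters of an ETS (GABPA) site, on either strand. The windows lie at chr4:45108064-45108363 (minus), chrX:134541621-134541920 (minus), chr2:84826771-84827070 (plus), chr16:57121464-57121763 (plus) and chr6:124712039-124712338 (plus).
Tomm5: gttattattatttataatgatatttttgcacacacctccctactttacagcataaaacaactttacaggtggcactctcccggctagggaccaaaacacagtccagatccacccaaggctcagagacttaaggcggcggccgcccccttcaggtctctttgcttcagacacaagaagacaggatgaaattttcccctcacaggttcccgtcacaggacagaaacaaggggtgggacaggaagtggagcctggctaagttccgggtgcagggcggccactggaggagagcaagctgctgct
Timm8a1: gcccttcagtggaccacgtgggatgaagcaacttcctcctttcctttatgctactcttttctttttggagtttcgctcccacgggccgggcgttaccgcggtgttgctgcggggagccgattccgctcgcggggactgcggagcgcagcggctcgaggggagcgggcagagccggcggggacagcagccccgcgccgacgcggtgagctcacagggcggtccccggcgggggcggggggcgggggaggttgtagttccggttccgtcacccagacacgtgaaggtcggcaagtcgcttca
Timm10: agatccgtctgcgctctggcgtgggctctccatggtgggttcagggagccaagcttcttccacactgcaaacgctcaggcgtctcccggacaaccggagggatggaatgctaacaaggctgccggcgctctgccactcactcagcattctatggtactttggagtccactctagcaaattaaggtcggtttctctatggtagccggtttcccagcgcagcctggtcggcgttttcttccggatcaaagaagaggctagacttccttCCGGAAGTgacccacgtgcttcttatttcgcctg
Tomm70a: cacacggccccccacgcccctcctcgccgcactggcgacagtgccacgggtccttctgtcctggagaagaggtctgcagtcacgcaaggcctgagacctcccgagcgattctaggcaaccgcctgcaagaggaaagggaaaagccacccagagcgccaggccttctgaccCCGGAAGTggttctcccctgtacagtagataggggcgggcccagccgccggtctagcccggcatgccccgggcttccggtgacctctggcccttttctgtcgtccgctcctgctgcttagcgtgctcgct
Phb2: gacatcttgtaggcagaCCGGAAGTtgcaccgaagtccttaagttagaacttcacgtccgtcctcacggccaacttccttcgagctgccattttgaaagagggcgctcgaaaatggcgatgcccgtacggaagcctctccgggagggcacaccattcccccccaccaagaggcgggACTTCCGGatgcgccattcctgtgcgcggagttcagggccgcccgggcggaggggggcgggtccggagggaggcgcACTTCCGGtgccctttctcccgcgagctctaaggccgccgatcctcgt

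The ETS letters stood 3 times in the Phb2 window, from -233, -74 and 2 relative to the start, and 1 time each in those of Timm10 (from 16) and Tomm70a (from -80). The windows of both called genes held none. Over all genes with a window, 41 of the 46 matched, with 49 windows, and 11 of 49 (22.4%) held CCGGAAGT on at least 1 strand. The share was 18.9% (10 of 53) among windows of the import, cristae and dynamics partner genes counted further on, 7.69% of 12731 windows of genes tested and 3.89% of all 32851 windows. The genes with the letters were Chchd5, Fis1, Mfn1, Phb2, Timm10, Timm10b, Timm23, Timm29, Tomm70a and the undetected Timm8a2, and their log2 fold changes ran from 0.04 for Timm29 and 0.05 for Chchd5 to 0.47 for Timm10. The windows of Timm9, Chchd4, Tomm20 and Tomm22, at 0.35 to 0.45, held none. Among the 49 windows, an NRF1 core (CGCATGCG) was in 2 (4.08%, against 3.72% of windows of genes tested), an ERR site (TCAAGGTCA) in 1 (2.04%, against 0.275%), a YY1 site (AAGATGGCG) in 1 (2.04%, against 2.90%) and a CREB site (TGACGTCA) in 0 (against 2.87%), each on both strands. The windows printed held none of the other motifs, so no overlap between motifs arose in them. A match describes the letters of a window, not a bound factor.

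Of the genes for the channel and receptors of the outer membrane, 9 of 10 were tested and 1 was called, and the median log2 fold change was 0.22 (0.03 with total counts). For this and the groups below, the share called over all genes was 5.01% in either direction and 2.58% as higher. Tomm5, a small subunit that stabilises the TOM channel, lies at chr4:45105208-45108114 (minus strand, GRCm38). It stood at 28.2 and 30.5 CPM in sham and 45.8 and 42.6 CPM in TAC, or 29.4 ± 1.64 against 44.2 ± 2.25 (SD, n = 2 each). The groups were well apart, and the rise was 50.7%, equal to 0.59 ± 0.09 on the log2 scale (SE, edgeR adjusted p = 0.0173, and between 0.000396 and 0.0916 over the alternatives). Tomm5 was the one member called with every library left out in turn, and it missed the threshold with total counts (edgeR adjusted p = 0.0916, log2 fold change 0.40) and with limma on FPKM at either pseudocount (adjusted p = 0.0765 and 0.0702, 0.40 and 0.39).

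The receptors read the incoming proteins. Tomm20, the presequence receptor, stood at 53.8 and 51.1 CPM in sham and 62.3 and 75.5 CPM in TAC, with TAC 2 well above TAC 1. Its log2 fold change of 0.39 ± 0.10 was not called (edgeR adjusted p = 0.0711), and it was 0.25 without TAC 2 and 0.53 without TAC 1. It passed the threshold without TAC 1, by DESeq2 and without the low-count filter. Per transcript length, the deposited FPKM of Tomm20 were 25.3 and 16.9 in sham and 18.7 and 23.9 in TAC, which overlapped. Tomm22, a receptor and organiser of the complex, stood at 30.7 and 34.8 CPM in sham and 42.6 and 41.1 CPM in TAC (0.35 ± 0.09), and was called without the low-count filter. Tomm70a, the receptor for carrier proteins that dock with cytosolic chaperones, stood at 78.0 and 77.4 CPM in sham and 97.1 and 93.8 CPM in TAC. The spread within each group was small beside the gap between them, and the log2 fold change of 0.30 ± 0.07 lay just outside the threshold (edgeR adjusted p = 0.0557), which it passed by DESeq2 and without the low-count filter.

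Tomm40, the barrel protein that forms the pore, stood at 39.1 and 38.2 CPM in sham and 43.9 and 45.8 CPM in TAC (0.22 ± 0.08), again without overlap and without a call. At the low end of the group was Tomm34, a cytosolic cochaperone of import, at 13.6 and 12.1 CPM in sham and 12.3 and 14.0 CPM in TAC, so that the groups overlapped (0.03 ± 0.13). The remaining TOM genes, Tomm6, Tomm7 and Tomm40l, had log2 fold changes of 0.08 to 0.21. Tomm40l shares much of its exon sequence with Nr1i3 on the opposite strand, and none of the sources used here says whether counting used strand.

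**Figure D2:**
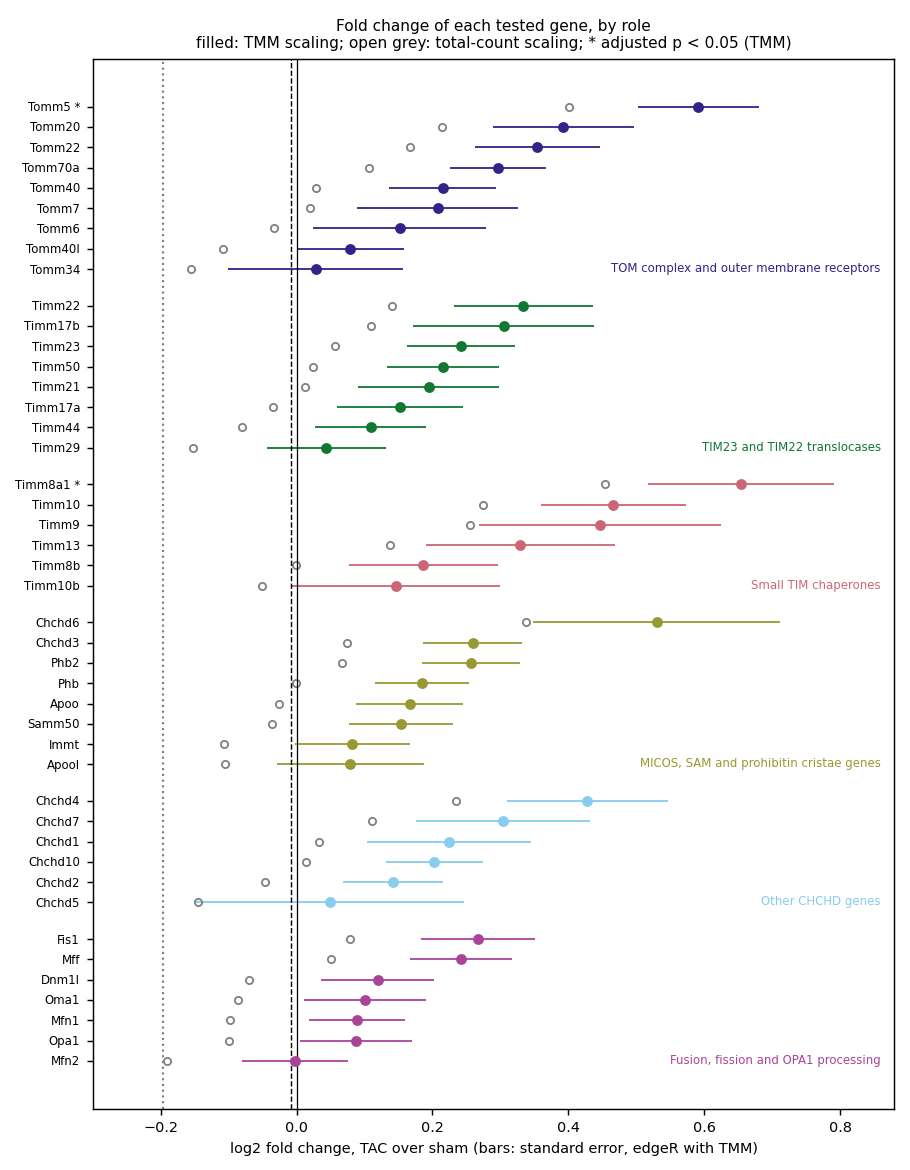
Log2 fold change, TAC over sham, of each of the 44 genes tested, grouped by role. Filled points with standard error bars are the edgeR fit with TMM scaling, open grey points the same with total-count scaling, and the dashed and dotted lines the medians of all genes at -0.01 and -0.20. Tomm5 and Timm8a1, marked with an asterisk, passed an adjusted p under 0.05, and Mfn2 was the one gene at or below 0 with TMM scaling.

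The small TIM chaperones had the highest median of the roles, 0.39 (0.20 with total counts) over the 6 of 7 genes tested, although no difference between roles was tested. They form rings that carry membrane proteins across the space between the membranes. Timm8a1, at chrX:134537256-134541865 (minus strand, GRCm38), works with Timm13. It stood at 10.8 and 10.7 CPM in sham and 18.8 and 15.01 CPM in TAC, or 10.7 ± 0.05 against 16.9 ± 2.65 (SD, n = 2 each). The sham libraries were almost equal and the TAC libraries differed from each other, with TAC 1 higher. Its rise of 57.4%, a log2 fold change of 0.65 ± 0.14, passed the threshold (edgeR adjusted p = 0.0434). The call was lost without TAC 1 (edgeR adjusted p = 0.151, log2 fold change 0.48), without sham 2 (edgeR adjusted p = 0.0520, 0.65), with total counts with or without the mitochondrial DNA genes (edgeR adjusted p = 0.113 and 0.0625, 0.45 and 0.55) and with limma on FPKM at either pseudocount (adjusted p = 0.0898 and 0.0832), over a range of 0.00424 to 0.151 among all alternatives.

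Timm9 and Timm10 assemble with each other into the ring that guides carrier proteins to the TIM22 complex. Timm10, at chr2:84826997-84830213 (plus strand, GRCm38), stood at 18.6 and 20.8 CPM in sham and 28.6 and 25.8 CPM in TAC, with 0.47 ± 0.11 on the log2 scale (edgeR adjusted p = 0.0522). It passed the threshold without sham 2, without TAC 2, by DESeq2 and without the low-count filter. Timm9, which was not called, stood at 5.85 and 7.78 CPM in sham and 9.86 and 8.67 CPM in TAC (0.45 ± 0.18). In both genes sham 2 lay nearer to TAC than sham 1 did, and the groups did not overlap. The other small TIM genes tested, Timm8b, Timm10b and Timm13, had log2 fold changes between 0.15 and 0.33, and Timm10b alone of the 6 overlapped between the groups.

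**Figure D3:**
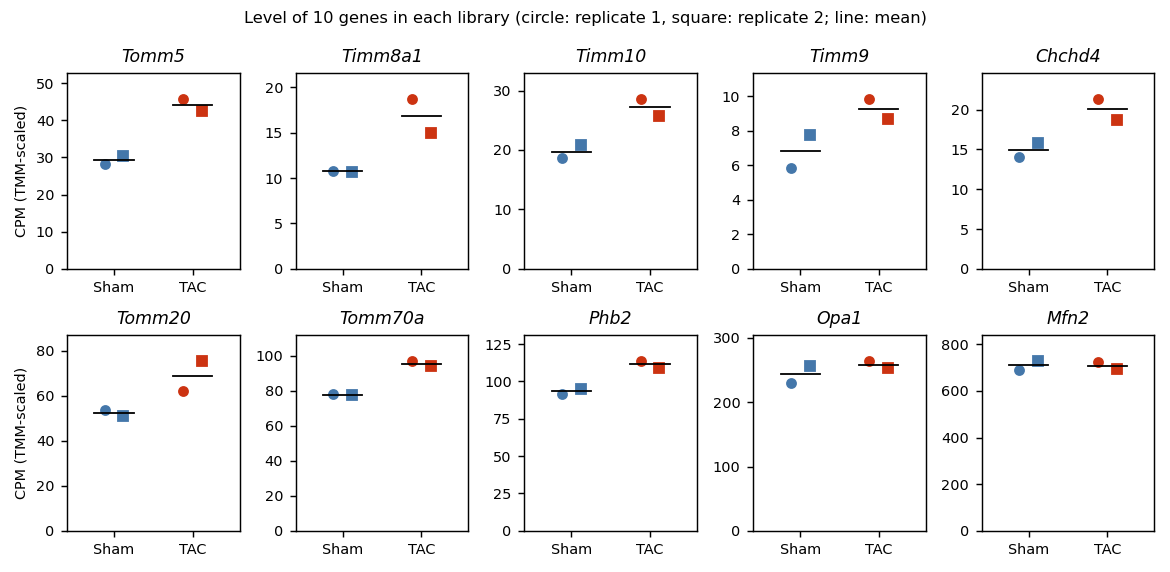
TMM-scaled CPM of 10 genes in each library (circles for replicate 1, squares for replicate 2, lines for the group mean, each vertical axis from 0). The TAC libraries lie above the sham libraries for the first 8 genes, most widely for Tomm5 and Timm8a1, while Opa1 and Mfn2 overlap.

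Of the inner membrane translocases, 0 of 8 were called, 7 of 8 had both TAC libraries above both sham libraries (29.8% of all genes), and the median was 0.21 (0.02 with total counts). Timm23, which forms the presequence channel, stood at 120.1 and 133.9 CPM in sham and 150.5 and 149.7 CPM in TAC (0.24 ± 0.08). Timm50, the receptor that hands presequence proteins to that channel, stood at 33.8 and 32.4 CPM in sham and 39.3 and 37.6 CPM in TAC (0.22 ± 0.08). Neither overlapped between groups. Timm17a, the partner of Timm23 in the channel, was at 72.8 and 85.5 CPM in sham and 89.4 and 86.5 CPM in TAC, so that sham 1 stood apart and sham 2 lay close to TAC (0.15 ± 0.09). Timm44, which anchors the import motor on the matrix side, was at 58.9 and 64.1 CPM in sham and 68.4 and 64.2 CPM in TAC (0.11 ± 0.08), with sham 2 and TAC 2 nearly equal. Timm29, a subunit of the TIM22 complex, stood at 71.8 and 70.5 CPM in sham and 78.4 and 68.3 CPM in TAC (0.04 ± 0.09), and was the one gene of the 8 whose groups overlapped. Timm22 itself, Timm17b and Timm21 had log2 fold changes of 0.19 to 0.33.

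Of the genes that shape the cristae or build the outer membrane barrels, 0 of 8 were called and the median was 0.18 (-0.01 with total counts). Chchd3, a MICOS subunit, stood at 192 and 204 CPM in sham and 233 and 241 CPM in TAC (0.26 ± 0.07). Both prohibitins, ring-forming proteins of the inner membrane, lay higher in TAC without overlap. Phb2 stood at 91.5 and 95.1 CPM in sham and 113.8 and 109.0 CPM in TAC (0.26 ± 0.07), and Phb at 186.5 and 191.8 CPM in sham and 212.7 and 217.0 CPM in TAC (0.18 ± 0.07). Chchd3, Phb and Phb2 each had both TAC libraries above both sham libraries, with edgeR adjusted p-values of 0.0814, 0.143 and 0.0814. Samm50, the barrel of the SAM complex, stood at 141.4 and 149.1 CPM in sham and 167.7 and 155.3 CPM in TAC (0.15 ± 0.08).

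Immt, the core of MICOS at the cristae junctions (chr6:71831331-71877388, plus strand), stood at 488.7 and 539.5 CPM in sham and 562.6 and 525.4 CPM in TAC (0.08 ± 0.08). Its groups overlapped, since sham 2 was above TAC 2. The same held for Apool, a MICOS subunit that binds lipid, at 30.4 and 36.9 CPM in sham and 35.1 and 35.9 CPM in TAC (0.08 ± 0.11). Apoo and Chchd6, the remaining MICOS subunits, had log2 fold changes of 0.17 and 0.53. Chchd6 was singled out after its values were seen, because its fold was the highest of this group at a low level, with 3.51 and 3.34 CPM in sham and 5.02 and 4.87 CPM in TAC (edgeR adjusted p = 0.119).

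Among the other CHCHD genes, 0 of 6 were called and the median was 0.21 (0.02 with total counts). Chchd4, the oxidoreductase that folds imported proteins in the intermembrane space, stood at 14.0 and 15.8 CPM in sham and 21.4 and 18.7 CPM in TAC, with 0.43 ± 0.12 on the log2 scale (edgeR adjusted p = 0.0795). It was called when TAC 2 was left out and without the low-count filter. Chchd10, an intermembrane space protein abundant in muscle, stood at 315.7 and 314.5 CPM in sham and 368.9 and 356.3 CPM in TAC (0.20 ± 0.07), without overlap. Chchd1, Chchd2, Chchd5 and Chchd7 had log2 fold changes of 0.05 to 0.30.

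Of the genes for fusion, fission and Opa1 processing, 0 of 7 were called, and the median was 0.10, which was -0.09 with total counts. With total counts, 2 of 7 lay above 0. Fis1, an outer membrane adaptor of fission, stood at 28.2 and 27.4 CPM in sham and 33.4 and 33.5 CPM in TAC (0.27 ± 0.08, edgeR adjusted p = 0.0987). Mff, the main docking site for Dnm1l, stood at 68.3 and 69.1 CPM in sham and 84.1 and 78.3 CPM in TAC (0.24 ± 0.08, edgeR adjusted p = 0.0970). For both adaptors the TAC libraries were clear of the sham libraries, and with total counts the log2 fold changes were 0.08 for Fis1 and 0.05 for Mff. No difference between the genes for fission and fusion was tested. Dnm1l, the GTPase that constricts the organelle, stood at 122.6 and 136.5 CPM in sham and 145.5 and 135.8 CPM in TAC (0.12 ± 0.08), with overlap.

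Mfn1, a mitofusin of the outer membrane, stood at 304.5 and 317.4 CPM in sham and 331.6 and 329.8 CPM in TAC (0.09 ± 0.07). Mfn2, the other mitofusin (chr4:147873599-147904704, minus strand), stood at 690.1 and 729.9 CPM in sham and 722.3 and 695.0 CPM in TAC. Its groups interleaved and its log2 fold change was -0.0027 ± 0.08 (edgeR adjusted p = 0.987), and with total counts it was -0.19. Opa1, the inner membrane fusion GTPase, stood at 229.6 and 257.2 CPM in sham and 264.7 and 252.6 CPM in TAC (0.09 ± 0.08). Oma1, the protease that cleaves Opa1 under stress, stood at 27.2 and 25.6 CPM in sham and 27.8 and 28.9 CPM in TAC (0.10 ± 0.09). With total counts, Mfn1, Opa1, Oma1 and Dnm1l were below 0, so the direction of these 4 genes rested on the scaling. That was not particular to this group, since 20 of the 44 genes lay below 0 with total counts.

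Levels can be compared between genes only per length, for which the deposited FPKM (fragments scaled to transcript length and library size) were used. The 44 genes spanned from a mean of 2.78 FPKM for Chchd5 to 353 FPKM for Chchd10. Chchd10 (334 to 374 over the 4 libraries), Chchd2 (310 to 348), Immt (218 to 250) and Mfn2 (145 to 177) led the list. The ranges of Chchd10 and Chchd2 overlapped, and those of the other neighbours among these 4 genes did not. Within the TOM complex Tomm5 was highest at 48.3 and 49.5 FPKM in sham and 62.1 and 67.1 FPKM in TAC, above Tomm22 at 28.9 to 38.7 FPKM. Timm23 was far above Timm17a, at 111 to 129 FPKM against 16.8 to 25.5 FPKM. Mfn2 exceeded Mfn1 (85.3 to 99.2 FPKM) and Opa1 (42.2 to 49.4 FPKM) in every library, and Phb exceeded Phb2 (74.98 to 83.4 FPKM).

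**Figure D4:**
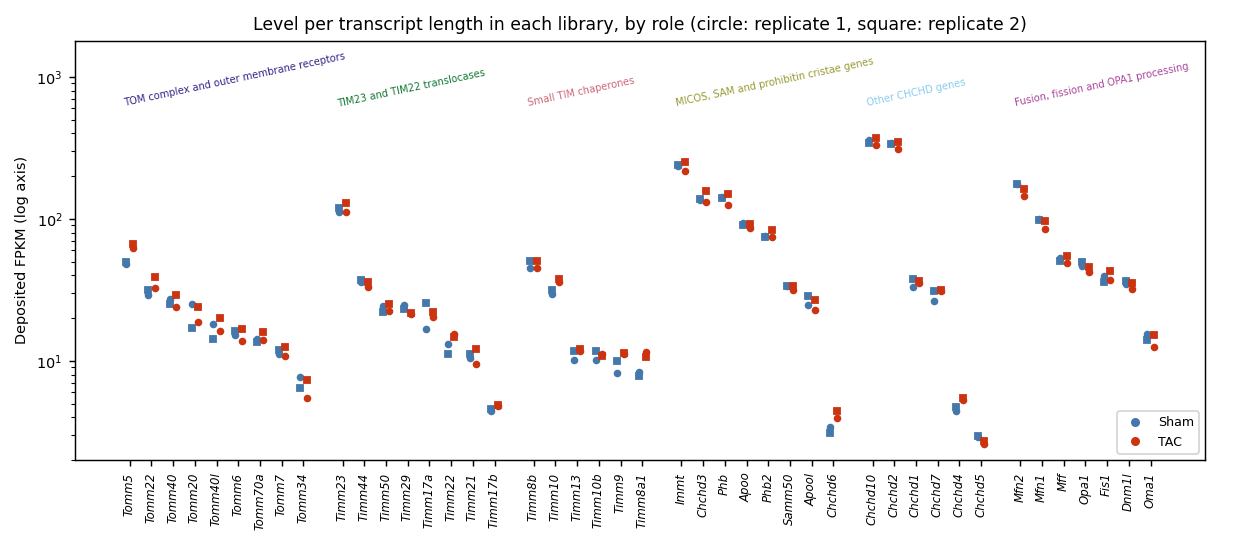
Deposited FPKM (log axis) of the 44 genes in each library, ordered by level within each role, with circles for replicate 1 and squares for replicate 2 (blue sham, red TAC). The genes span from 2.78 to 353 FPKM in their means, so that members of one complex, such as Timm23 and Timm17b, differ far more from each other than TAC does from sham.

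Genes that work beside these in import and membrane shape were counted from lists of 24 and 26 further genes. Of the partners in the import motor, presequence processing and protein assembly, 24 of 24 had a log2 fold change above 0 with TMM scaling (11 of 24 with total counts), 18 had both TAC libraries above both sham libraries (29.8% of all genes), and 1 was called higher (2.58% of all genes). That gene was Dnajc11, a J-domain protein bound to MICOS and SAM, with a mean of 51.4 CPM in sham and 68.6 CPM in TAC (0.42 ± 0.07, edgeR adjusted p = 0.0278, and between 0.00504 and 0.339 over the alternatives), or 0.23 on the log2 scale with total counts. The list's median was 0.19. Of the partners in cristae and dynamics, 23 were tested, 18 lay above 0 and 5 below with TMM scaling (8 above and 15 below with total counts), 14 had both TAC libraries above both sham libraries and 1 had both below, 0 were called, and the median was 0.17 (-0.02 with total counts).

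Other nuclear genes for mitochondrial proteins, counted after the values above were seen, lay at similar medians. The 78 mitochondrial ribosomal protein genes had a median of 0.22, with 77 above 0, 63 with TAC above sham without overlap (29.8% of all genes) and 0 called, and with total counts 47 of 78 lay above 0. A further 38 tested nuclear genes were taken by symbol as respiratory complex I subunits (Nduf, then a, b, c, s or v and a digit). Of these, 36 lay above 0, 32 had TAC above sham without overlap, 1 had TAC below sham and 0 were called. Their median was 0.20 and their lowest value -0.95, while with total counts 21 of 38 lay above 0. No difference between these lists and the import, cristae and dynamics genes was tested, and all share the same 4 libraries. The 13 protein genes of the mitochondrial DNA had a median of 0.31 (0.10 with total counts), none was called, and 4 of 13 had TAC above sham without overlap, against 29.8% of all genes. Their CPM summed to 363182 and 392928 in sham and 546218 and 399921 in TAC, with TAC 1 apart and TAC 2 close to sham 2.

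Transcript length moved with the fold changes. Over the 44 genes, Spearman's rho between the longest annotated transcript and the log2 fold change was -0.31, and over 12459 genes tested it was -0.25, given as a description across genes that share the same libraries. The 8 genes of up to 1000 bases had a median log2 fold change of 0.25, where all genes of that size had 0.19. The 21 genes from 1000 to 2500 bases had 0.22, against 0.09 for all, and the 15 longer ones had 0.15, against -0.06 for all. In each length class the median of the import, cristae and dynamics genes was above that of all genes, and the part of length in the differences was not tested. The longest annotated transcript is not always the length implied by the deposited counts and FPKM. Timm10b, at 3273 annotated bases, had an implied length of 671 to 760 bases over the libraries. For Timm9, at 2564 annotated bases, it was 772 to 817 bases.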

How the data were processed

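Per the labels and the study's methods, RNA of isolated mouse cardiomyocytes was sequenced in 2 sham and 2 TAC libraries, grouped by sample title. The submitters' processing notes name Bowtie2 2.2.8, StringTie 1.3.1 and mm10, while no source used here gives the counting program, the annotation or whether strand was used. Deposited by the authors for each gene and library were an expected count, estimated and so not always whole, and its FPKM, from 24237777 to 32118323 counts in all. Expected counts were rounded and analysed in R 4.3.3 with edgeR 4.0.16: filterByExpr, TMM scaling, glmQLFit and glmQLFTest without a block, and Benjamini-Hochberg adjustment over the 12499 genes tested, with a threshold of 0.05. Biological variation (edgeR's common coefficient) was 10.5%. The test was run on simulated data first. CPM used TMM-scaled library sizes.

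With 2 libraries per group, an exact permutation test of 1 gene cannot go below p = 0.333, so p-values rest on the spread pooled over genes. The 2 libraries of a group differed beyond counting noise (chi-square per degree of freedom 8.08 for sham and 26.7 for TAC) and were kept as separate samples. Alternatives were total-count scaling with and without the 13 mitochondrial DNA genes, DESeq2 1.42.0, no low-count filter, limma 3.58.1 on log2(FPKM + 0.1) or log2(FPKM + 1) for genes with a mean FPKM over 1, adjusted p thresholds of 0.01 and 0.1, a replicate block, and each library left out.

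The members and gene lists were chosen with earlier results of these data known. Values per library are given for members called, for the 4 largest rises and the 4 largest falls by log2 fold change among members averaging 5 CPM or more, and for core components of each complex. Because 1 member lay below 0, the falls include 3 genes just above it. Gene positions and transcript lengths came from GENCODE M21 (GRCm38), matched by gene ID, and promoter windows from RefSeq (GRCm38.p6), matched by symbol.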

Additional observations from a re-analysis of the deposited data

How the results depend on the processing

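The number of the 44 genes called, 2 in the reported fit and all of them higher, was 0 at an adjusted p under 0.01 (0.736% of all genes), 12 at 0.1 (14.5%), 0 with total counts (4.22%), 1 (Tomm5) with total counts that left out the mitochondrial DNA genes (5.09%), 5 with DESeq2 (5.63%), 7 without the low-count filter (10.5%) and 0 with limma on FPKM at either pseudocount (4.21% and 5.02%). It was between 2 and 4 when 1 library was left out, and 4 without TAC 2, where the calls over all genes also went from 626 to 1336. Without TAC 1 the calls over all genes numbered 301. No member was called lower in any setting. Over all genes, calls also numbered 1676 without the filter. The median log2 fold change of the members, 0.21, was 0.017 with total counts, 0.11 with total counts without the mitochondrial DNA genes, 0.022 and 0.021 with FPKM at pseudocounts of 0.1 and 1, and lay between 0.16 and 0.25 with 1 library left out. Its distance from the all-gene median lay between 0.14 and 0.25 over all settings, and at least 41 of 44 members stayed above that median. The total-count settings could change neither by much, since they move all genes about alike. For the 29 named genes, 298 of 319 comparisons with an alternative other than the crossed pairing kept their side of the threshold, 12 gained a call and 9 lost one (Tomm5 and Timm8a1), and no called gene changed sign. The sign of genes not called differed in 47 comparisons.

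With the replicate number as a block, a replicate block fit, 2 members were called, the same genes, and 566 genes in all. Same-numbered libraries did not deviate together (correlation -0.24 across genes), and with the crossed pairing, chosen after seeing the data, 12 members and 2131 genes were called, with 9 of the 29 named genes gaining a call. Per the study's methods sham and TAC mice came in pairs, and the labels do not say that a shared number marks a pair. The causes of these differences were not tested. At 2 libraries per group, the standard errors of the members were 0.07 to 0.20 on the log2 scale, beside their median of 0.21.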

Other observations

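The deposited counts and FPKM of a gene imply a length, and that length was within 5% between libraries for 35 of 44 genes. It was least even for Tomm20, from 2337 bases in sham 1 to 3189 bases in TAC 2, and for Timm17a, from 3488 bases in sham 2 to 4748 bases in sham 1. For Timm17a the FPKM were 16.8 and 25.5 in sham and 20.5 and 22.1 in TAC. Expected counts were not whole in at least 1 library for 6 members, namely Chchd2, Timm10b, Timm17a, Timm17b, Tomm40l and Tomm6, and no source used here says how shared reads were divided. Exons of 19 members overlap those of other annotated genes, and those of Tomm5, Timm8a1 and Timm10 do not.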
